A study of Mus musculus with 8 samples.

Results

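The 10 histone deacetylase genes Hdac1 to Hdac8, Hdac10 and Hdac11 were followed in mouse oocytes with and without Dicer, with Hdac1 set against the other deacetylases. They were represented by every probe set whose single platform gene symbol is one of the 10, which gave 17 of 45037 probe sets and 10 of 18193 genes. Fully grown oocytes with an intact germinal vesicle, the large nucleus kept before meiosis resumes, were taken from female 129/C57BL6 mice primed with equine chorionic gonadotropin, a hormone that drives follicle growth. Of the 8 mice, 4 were wild type and 4 were labelled Dicer knockout. From each mouse, RNA of 20 pooled oocytes went through 2 rounds of amplification and onto 1 Affymetrix array. The labels name no deleted exon and no Cre driver, and they give no age. Oocytes of both groups had been stripped of cumulus cells by pipetting.

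Histone deacetylases remove acetyl groups from lysines, mostly on histone tails, and thereby favour closed chromatin. Class I enzymes (Hdac1, Hdac2, Hdac3 and Hdac8) are largely nuclear, and the first 3 of them work inside corepressor complexes. Class IIa enzymes (Hdac4, Hdac5 and Hdac7) shuttle between nucleus and cytoplasm, class IIb holds Hdac6 and Hdac10, and Hdac11 alone forms class IV. In mouse oocytes, double-stranded RNA that includes pseudogene transcripts is cut by Dicer into endogenous short interfering RNAs (siRNAs), which guide Argonaute 2 to cut matching messenger RNAs. Hdac1 is 1 of the genes reported to match such siRNAs through a pseudogene. The comparison asks whether its messenger RNA stood apart from those of its paralogues when Dicer was absent.

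The values are log2 signals made with RMA, a method that corrects background, scales arrays to each other and summarises the probes of a probe set. A difference of 1 is therefore a 2-fold difference, and low signals are compressed. Array medians lay between 6.35 and 6.43, and no 2 arrays were identical. Oocyte markers were bright on all arrays, with Zp3, a zona pellucida protein, at 14.39 ± 0.0647 (SD, n = 4) in wild type and 14.38 ± 0.0656 in knockout. Across 13 measured oocyte markers, 4 were lower and 0 higher in knockout, where 12.8% of all genes were lower and 8.18% higher. The 4 were Figla (-0.61), Kit (-0.37, with a call in 1 of 2 probe sets), Mos (-0.36) and Dppa3 (-0.30). The lower count was 2 without knockout array 3, 2 under cyclic loess scaling (with 1 higher) and 0 with a fixed block on the first number of the sample titles, which some mice of both genotypes share. Of 21 markers of cumulus and granulosa cells, the somatic cells around the oocyte, 10 were lower and 0 higher, where 12.8% of all genes were lower. The largest of these falls were in Cyp11a1 (-1.57), Inhbb (-1.18) and Fst (-1.10). Cyp11a1 is the enzyme that starts steroid synthesis, Inhbb an inhibin and activin subunit, and Fst the activin-binding follistatin. Of 3 Cyp11a1 probe sets 1 dim one rose, and Inhbb had a call in 1 of 2. The count of lower cumulus and granulosa markers was 6 without wild-type array 1, 5 without knockout array 3, 1 in a plain linear model and 0 with the fixed block. The summed linear signal of these 21 ranged from 10698 to 16457 in wild type and from 7051 to 9228 in knockout, and their median log2 difference was -0.44. None is at 0, since RMA signals have no zero. Among the 11 that were not called, the granulosa genes Amh and Foxl2 differed by -0.02 and -0.01. For cells of other ovarian compartments (theca, stroma, vessels, blood), 1 of 17 markers was higher (5.88%) and 2 were lower (11.8%). Over all genes, 8.18% were higher and 12.8% lower. Cd68 rose (1.16), while Tek (-0.78) and Kdr (-0.54) fell, and the calls of Tek and Kdr ended with the fixed block. Summed linear signals of the 17 were 1859 to 2006 in wild type and 1674 to 1914 in knockout. The part of these markers in the deacetylase results was not tested. Actin control probe sets, which compare the ends of the transcript as a measure of RNA integrity, differed (3′ minus 5′, log2) by 1.97 to 2.63 in wild type and 1.95 to 2.29 in knockout. In 5 of the 17 deacetylase probe sets (those of Hdac1 and Hdac3, the brightest of Hdac4 and both of Hdac11) the top wild-type value came from array 1. Without that array the log2 differences were 2.47 for Hdac1, -0.10 for Hdac3, -0.13 for Hdac4 (1436758_at), and 1.02 (1451229_at) and 0.53 (1454803_a_at) for Hdac11.

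Hdac1, a catalytic subunit of the Sin3, NuRD and CoREST corepressor complexes, rose more than each of the other 9 deacetylases. Its probe set (1448246_at, the only one for this gene) read 8.84, 8.32, 8.22 and 8.11 on wild-type arrays 1 to 4 and 10.51, 10.93, 10.65 and 10.62 on knockout arrays 1 to 4. The groups were separated by a gap of 1.68, more than the whole range of either group. The group means were 8.37 ± 0.323 and 10.68 ± 0.178 (SD, n = 4 and 4), a log2 difference of 2.31 ± 0.158 (SE, 95% interval 1.96 to 2.66) or 4.96-fold (limma, adjusted p = 2.52e-05). An exact permutation test (two-sided) gave p = 0.0286, the smallest that 4 against 4 arrays can give, and 0.0476 after Benjamini-Hochberg adjustment over 5 single values tested this way. Of 18193 genes, 82 (0.451%) had a larger log2 rise. In pooled RNA of 20 oocytes, less RNA per cell and fewer cells that hold it cannot be told apart.

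The labels do not say what the first number of the code in the sample titles means. Within code 24 (wild-type array 1 and knockout array 2) Hdac1 was 2.10 higher in knockout, and within code 27 (wild-type array 2 and knockout array 4) it was 2.31 higher. The difference was thus of similar size within each shared code, with 1 array per genotype in each.

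**Figure D1:**
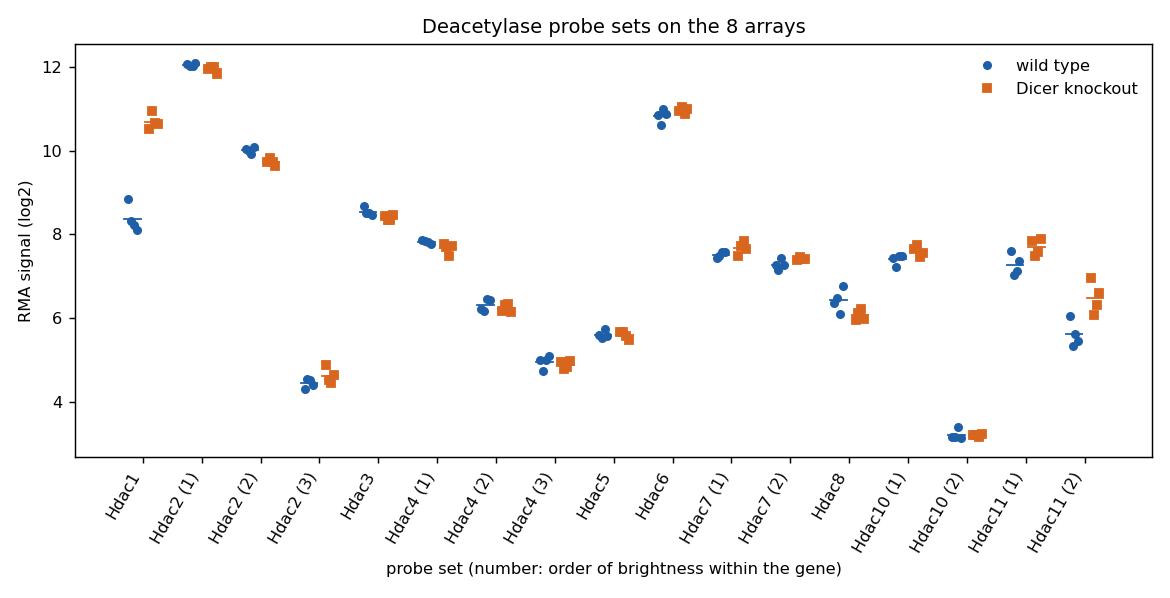
RMA signal (log2) of the 17 deacetylase probe sets on the 4 wild-type arrays (circles) and the 4 Dicer knockout arrays (squares), with a bar at each group mean; numbers in brackets order a gene's probe sets by brightness. Hdac1 reads 8.11 to 8.84 in wild type and 10.51 to 10.93 in knockout, while group means of the other probe sets differ by 0.87 (Hdac11) or less, and heights of different probe sets are not comparable.

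Across the 17 probe sets, 2 passed the threshold as higher in knockout (11.8%) and 1 as lower (5.88%), where adjusted p under 0.05 over all probe sets was the threshold. Over all 45037 probe sets, 6.82% were called higher and 9.31% lower. The calls were Hdac1, 1 of 2 Hdac11 probe sets and 1 of 3 Hdac2 probe sets, so 7 of the 10 genes had no call. The median log2 difference was -0.01 over the 17 probe sets and 0.02 over all probe sets. The 14 uncalled probe sets had log2 differences of -0.36 to 0.42, and none of their 95% intervals, which together spanned -0.65 to 0.74, reached a 2-fold change in either direction. The groups did not overlap in 2 probe sets that were higher and 3 that were lower, against 9.66% and 11.5% of all probe sets.

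**Figure D2:**
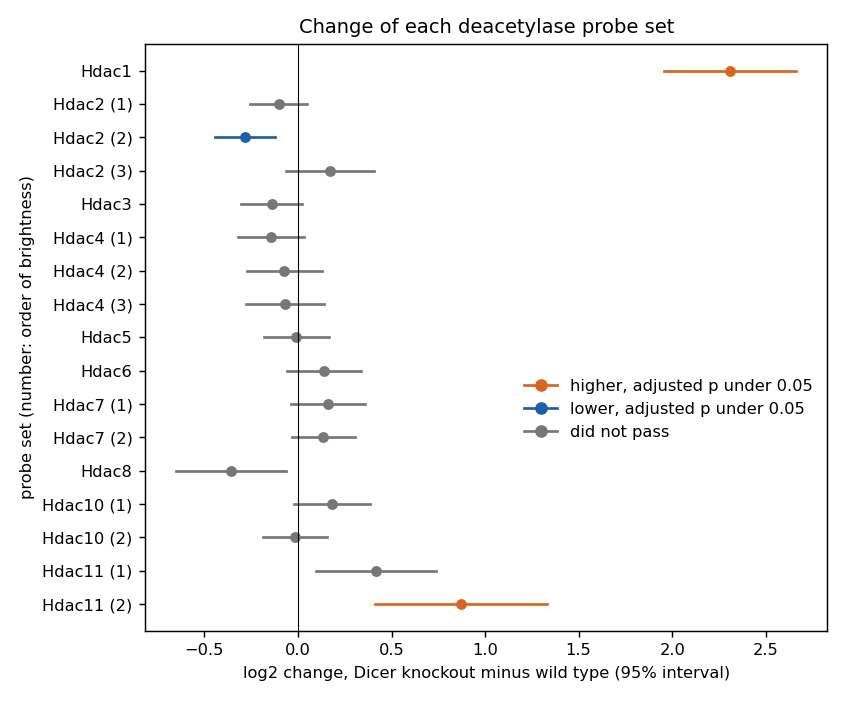
Log2 difference (knockout minus wild type) of each deacetylase probe set with its 95% interval from the limma fit on 4 against 4 arrays; colours mark probe sets that passed adjusted p under 0.05. Hdac1 lies at 2.31, Hdac11 (2) at 0.87 and Hdac2 (2) at -0.28, and the remaining probe sets lie between -0.36 and 0.42.

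Hdac2, the closest relative of Hdac1 and its partner in the same complexes, was measured by 3 probe sets that gave small differences of unlike sign. The brightest (1445684_s_at, whose suffix marks sequence shared between transcripts) gave 12.05, 12.00, 12.00 and 12.09 on wild-type arrays 1 to 4, against 11.94, 12.00, 11.99 and 11.82 on the knockout arrays. The knockout values lay just below the wild-type values, by a gap of 0.008, and the difference of -0.10 ± 0.0687 (SE) did not pass (limma, adjusted p = 0.374). The second (1449080_at) gave 10.03, 9.99, 9.92 and 10.08 on wild-type arrays 1 to 4, against 9.72, 9.81, 9.72 and 9.63 on the knockout arrays. All 4 knockout values were below all 4 wild-type values, and this probe set fell by 0.28 ± 0.071 (SE) on the log2 scale, or 1.22-fold (limma, adjusted p = 0.0232). The call ended without any 1 of 6 arrays (all but wild-type array 3 and knockout array 2), at adjusted p of 0.0515 to 0.0676, and under quantile or cyclic loess scaling (0.0597 and 0.0933). It also ended under trend and robust eBayes (adjusted p = 0.0514) and with the fixed block (adjusted p = 0.291). The third (1439704_at) was dim, at 4.32 to 4.57 in wild type and 4.46 to 4.89 in knockout, with a difference of 0.17 (adjusted p = 0.331). The mean of the 3 probe sets differed by -0.07 ± 0.0573 (SE, adjusted p = 0.421).

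Hdac3, the catalytic subunit of the NCoR and SMRT corepressors, gave 8.67, 8.50, 8.52 and 8.46 on wild-type arrays 1 to 4, against 8.43, 8.35, 8.36 and 8.46 on the knockout arrays (1426437_s_at). The groups were apart by 0.0033, and the difference of -0.14 ± 0.0727 (SE) did not pass (limma, adjusted p = 0.241). Hdac8, a class I enzyme that deacetylates the cohesin subunit Smc3, gave 6.38, 6.48, 6.11 and 6.76 on wild-type arrays 1 to 4, against 5.97, 6.14, 6.22 and 5.98 on the knockout arrays (1428933_at). The groups overlapped through wild-type array 3, the lowest of its group, and the difference of -0.36 ± 0.131 (SE, 95% interval -0.65 to -0.06) did not pass (limma, adjusted p = 0.101). Without wild-type array 3 it was -0.46 and passed (limma, adjusted p = 0.0298). Thus, of the 4 class I genes, Hdac1 alone had a call that kept its side of the threshold without each array.

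In class IIa, 0 of 6 probe sets passed, and log2 differences lay between -0.14 and 0.16. These enzymes bind Mef2 transcription factors and leave the nucleus when phosphorylated. Hdac4 read 7.76 to 7.87 in wild type and 7.50 to 7.78 in knockout in its brightest probe set (1436758_at), a difference of -0.14 ± 0.0793 (SE, adjusted p = 0.271), and its dimmer probe sets differed by -0.07 and -0.07. Hdac5 read 5.52 to 5.74 and 5.49 to 5.68 (1415743_at), a difference of -0.01 with a 95% interval of -0.18 to 0.17. Both Hdac7 probe sets were slightly higher in knockout, by 0.16 ± 0.088 (1420813_at) and 0.14 ± 0.0751 (1420812_at), and neither passed (limma, adjusted p = 0.272 and 0.275). Those 2 intervals reached from -0.04 and -0.03 to 0.36 and 0.30.

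In class IIb, 0 of 3 probe sets passed. Hdac6, the cytoplasmic enzyme that deacetylates tubulin, was bright in oocytes and gave 10.83, 10.62, 10.98 and 10.87 on wild-type arrays 1 to 4, against 10.95, 11.04, 10.87 and 10.99 on the knockout arrays (1448928_at). The groups overlapped, with a difference of 0.14 ± 0.0886 (SE, 95% interval -0.06 to 0.34). Hdac10, a polyamine deacetylase, read 7.23 to 7.50 and 7.45 to 7.74 in its brighter probe set (1454775_at), a difference of 0.18 ± 0.0913 (SE, adjusted p = 0.229). Its other probe set (1441832_at) lay at 3.23 ± 0.12 and 3.21 ± 0.0324 (SD, n = 4 and 4), near the bottom of the signal range.

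Hdac11, the class IV enzyme that removes long acyl chains, was higher in knockout in both of its probe sets, and 1 of them passed. The dimmer (1451229_at) gave 6.06, 5.34, 5.64 and 5.46 on wild-type arrays 1 to 4, against 6.97, 6.09, 6.31 and 6.61 on the knockout arrays. Wild-type array 1 reached within 0.0268 of the lowest knockout value. The rise was 0.87 ± 0.205 (SE) on the log2 scale, or 1.83-fold (limma, adjusted p = 0.018), and the call ended without wild-type array 2 or 4 (adjusted p = 0.0523 and 0.0528). The call also ended in the plain linear model (adjusted p = 0.0804) and with the fixed block (0.65, adjusted p = 0.309). The brighter (1454803_a_at) gave 7.61, 7.03, 7.12 and 7.36 on wild-type arrays 1 to 4, against 7.84, 7.48, 7.57 and 7.89 on the knockout arrays. These groups overlapped, and the difference of 0.42 ± 0.143 (SE) did not pass (limma, adjusted p = 0.0798), although it did without wild-type array 1 (0.53, adjusted p = 0.0269). The mean of both probe sets differed by 0.65 ± 0.167 (SE) and passed (limma, adjusted p = 0.0236). Within title code 24 both probe sets differed little, by 0.03 (1451229_at) and -0.13 (1454803_a_at), and within code 27 by 1.27 and 0.87. The Hdac11 rise was thus seen in 1 of the 2 pairs of arrays that share a code.

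The change of Hdac1 was then tested against that of each other deacetylase, as the log2 difference between Hdac1 and the other probe set on the same array. Against the brightest Hdac2 probe set, Hdac1 lay at -3.22, -3.69, -3.79 and -3.99 on the wild-type arrays and at -1.42, -1.06, -1.34 and -1.20 on the knockout arrays. Only the shift between groups has a meaning here, since signals of different probe sets are not comparable in level. Hdac1 gained 2.41 ± 0.181 on the log2 scale over this Hdac2 probe set (SE, 95% interval 1.97 to 2.86, unmoderated linear model, adjusted p = 7.05e-05), and 2.59 over the second. The gain was 2.45 over Hdac3 and 2.67 over Hdac8, the largest of the 16. The smallest gains were 1.89 and 1.44 ± 0.287 over the Hdac11 probe sets, the last with a 95% interval of 0.735 to 2.14. In all 16 comparisons the 4 knockout values lay above the 4 wild-type values (exact two-sided permutation p = 0.0286 for each, the smallest possible). Adjusted p in the unmoderated model was 7.05e-05 to 0.00252, and 16 of 16 differences passed. Over all 45036 probe sets, this model called 99.1% in the same direction (the moderated fit 99.4%, and 99.6% in either direction), so the count sets Hdac1 apart from the deacetylases no more than from most transcripts. All 16 tests share the same Hdac1 values.

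**Figure D3:**
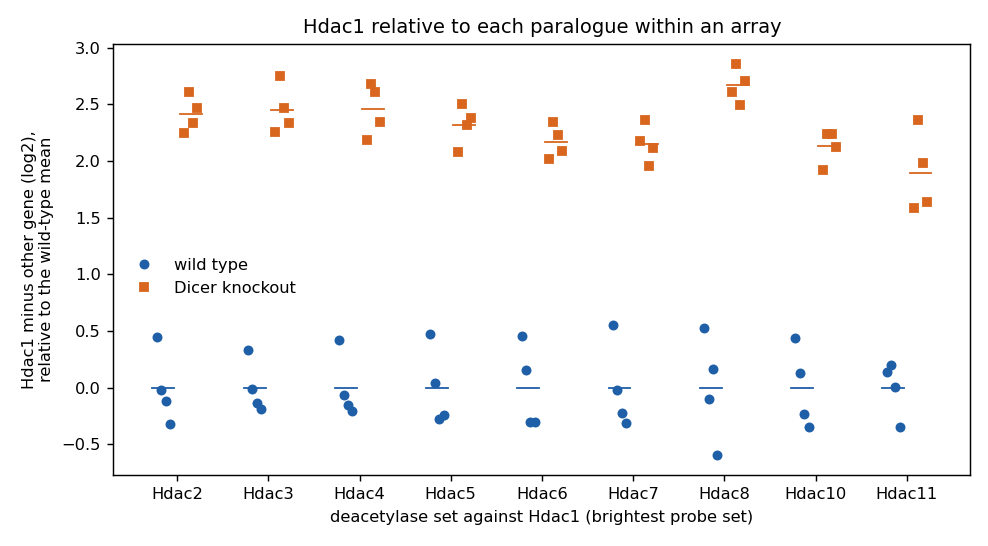
Hdac1 minus the brightest probe set of each other deacetylase on the same array (log2), set to 0 at the wild-type mean, for 4 wild-type arrays (circles) and 4 knockout arrays (squares) with bars at the means. Knockout arrays lie above all wild-type arrays for each of the 9 genes, by a mean of 1.89 for Hdac11 to 2.67 for Hdac8, and wild-type array 1 (the first circle) is high for all but Hdac11, where wild-type array 2 is higher.

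Hdac9, a class IIa enzyme outside the 10 genes, went the other way in its bright probe set (1434572_at). It gave 9.18, 9.32, 9.37 and 8.98 on wild-type arrays 1 to 4, against 8.85, 6.46, 8.23 and 6.92 on the knockout arrays. The wild-type arrays lay close together, while the knockout arrays spread over more than 2 log2 units, with arrays 2 and 4 far below the other knockout arrays. Arrays 2 and 4 are the knockout arrays that share a title code with a wild-type array. The difference was -2.72 within code 24 and -2.40 within code 27, with 1 array per genotype in each. The mean difference was -1.60 ± 0.451 (SE), or 3.02-fold lower (limma, adjusted p = 0.0393). The call ended without any 1 wild-type array or without knockout array 2 or 4, at adjusted p up to 0.0991. The other probe set (1421306_a_at) differed by -0.33 ± 0.124 (SE) and did not pass (adjusted p = 0.106), but did without knockout array 1 (-0.44, adjusted p = 0.0274). The 7 sirtuins, NAD-dependent deacetylases of a separate family, did not pass, with differences from -0.35 for Sirt1 to 0.32 for Sirt5 (limma, adjusted p = 0.412 and 0.0959). Under cyclic loess scaling Sirt5 passed as higher (0.42, adjusted p = 0.0374), and the Hdac9 call ended (-1.52, adjusted p = 0.0548). The Hdac9 call also ended under trend and robust eBayes (0.0811) and in the plain linear model (0.136).

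Partners that hold class I enzymes in corepressor complexes moved both ways: 6 of 34 measured genes were called higher (17.6%) and 4 were called lower (11.8%). Over all 18193 genes, 8.18% were called higher and 12.8% lower. The median difference of these partners was 0.02, against 0.00267 over all genes. Tbl1xr1, a subunit of the NCoR and SMRT complexes that contain Hdac3, gave 10.71, 10.23, 10.05 and 10.19 on wild-type arrays 1 to 4, against 12.72, 12.71, 12.83 and 12.50 on the knockout arrays. All knockout arrays were above all wild-type arrays, with a rise of 2.39 ± 0.139 (SE) or 5.25-fold (limma, adjusted p = 1.1e-05). Of its 6 probe sets 4 rose, 1 fell (1442312_at, -0.62) and 1 did not pass. Its relative Tbl1x, named after its values were seen, rose by 1.40 in its brightest probe set and passed in 3 of 3.

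Rcor3, a CoREST scaffold that binds Hdac1 and Hdac2, gave 8.47, 7.995, 8.47 and 8.22 on wild-type arrays 1 to 4, against 9.40, 9.30, 9.17 and 9.36 on the knockout arrays. It rose 2.03-fold (limma, adjusted p = 0.000373), with a call in 3 of its 6 probe sets. Chosen after their values were seen, Rcor2 (0.38) and Kdm1a (0.31), the lysine demethylase of the same complex, and Rbbp4 (0.25), a histone-binding subunit, were the other partners that rose. Ing2, a Sin3 subunit that reads methylated histone H3, fell from 10.26 ± 0.0729 to 9.79 ± 0.058 (SD, n = 4 and 4), a difference of -0.47 (limma, adjusted p = 0.00167). Arid4a, another Sin3 subunit, fell by 0.73, and Brms1l (-0.83) and Dnttip1 (-0.59), named after their values were seen, were the remaining partners that fell. The core scaffold Sin3a (0.14) and the NuRD ATPase Chd4 (0.10) did not pass. Without wild-type array 2, or without knockout array 1, 3 partners were called higher in place of 6. The calls of Rcor2, Kdm1a and Rbbp4 each ended without 6 or more of the single arrays.

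Among 22 partners and regulators of class IIa enzymes, 5 were higher (22.7%) and 2 lower (9.09%), against 8.18% and 12.8% of all genes. Mef2a, a transcription factor that class IIa enzymes repress, gave 7.74, 6.61, 6.91 and 6.55 on wild-type arrays 1 to 4, against 8.31, 7.71, 8.22 and 8.36 on the knockout arrays. It rose 2.29-fold (limma, adjusted p = 0.0113) although wild-type array 1 lay just above knockout array 2, with a call in 3 of its 6 probe sets. Sfn, a 14-3-3 protein, rose 1.28-fold. Prkd3, a kinase of the family that phosphorylates class IIa enzymes, read 7.64 to 7.98 in wild type and 6.34 to 7.04 in knockout, and fell by 1.05 (limma, adjusted p = 0.00142) in its brightest probe set and passed in 2 of 4. Camk4, a calcium-dependent kinase, fell by 0.95 in 1 of 5. Named after their values were seen, the kinases Sik2 (0.76) and Sik3 (0.58) and the transcription factor Mef2d (0.37) were the others called higher. Sik2 passed in 1 of 3 probe sets, Sik3 in 1 of 4 and Mef2d in 2 of 3. These 3 calls each ended without 4 or more of the single arrays. The lowest difference in the list, -1.82, belonged to a gene that did not pass. The count called higher was 3 without wild-type arrays 1, 2 or 4 or knockout array 4, and 2 without wild-type array 3 or knockout arrays 1 or 3.

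Of 27 enzymes that add acetyl groups and their core partners, 3 were called higher (11.1%) and 4 lower (14.8%), against 8.18% and 12.8% of all genes. Trrap, a scaffold of acetyltransferase complexes, rose 1.64-fold and Msl1, a scaffold of a complex with Kat8, 1.36-fold. Ing3, a subunit of the Kat5 complex, read 10.91 to 11.19 in wild type and 10.38 to 10.49 in knockout. It fell by 0.62 (limma, adjusted p = 0.000658) in 1 of its 4 probe sets. Tada2b fell by 0.58, a call that ended without any 1 of 6 arrays (all but wild-type array 3 and knockout array 1), at adjusted p up to 0.0738. Among catalytic genes named after their values were seen, Kat5 fell by 0.31 in its brightest probe set (limma, adjusted p = 0.0481) and passed in 2 of 2. That call ended without any 1 of 7 arrays (all but wild-type array 1), at adjusted p up to 0.121. Ep300 (0.17) and Crebbp (-0.09) did not pass (limma, adjusted p = 0.468 and 0.556). The count called lower was 2 without wild-type array 1 or 3 or knockout array 1, and 1 without any other single array. It was 7 with the mean of each gene's probe sets, and the count called higher was 0 with the fixed block.

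Of 25 bromodomain genes, whose proteins bind acetylated histones, 4 were higher (16%) and 1 lower (4%), against 8.18% and 12.8% of all genes. Atad2 gave 10.45, 9.56, 9.54 and 9.77 on wild-type arrays 1 to 4, against 11.32, 11.16, 11.46 and 11.27 on the knockout arrays, with wild-type array 1 the highest of its group. It rose 2.78-fold (limma, adjusted p = 0.000657) in 1 of its 3 probe sets. Smarca2, an ATPase of chromatin remodelling complexes, rose 1.75-fold in 1 of 2. Phip fell by 0.32 in its brightest probe set and passed as lower in 3 of 9. Without wild-type array 3, or in the plain linear model, 2 bromodomain genes were called lower, and under cyclic loess scaling 0. With the fixed block 1 was called higher and 0 lower, and the Atad2 call ended (limma, adjusted p = 0.0579).

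**Figure D4:**
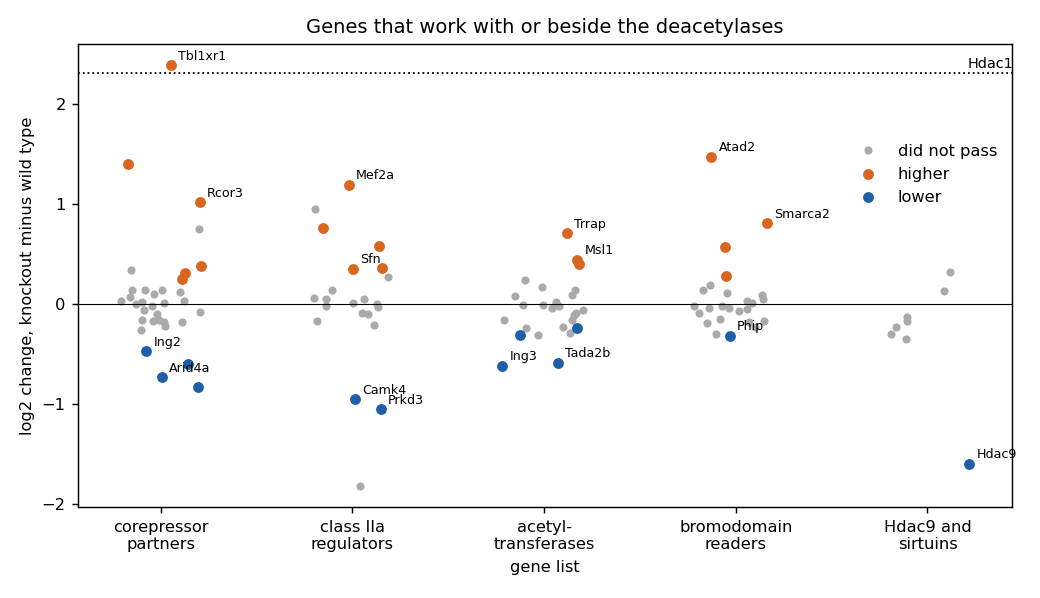
Log2 difference (knockout minus wild type) of each measured gene in 5 lists, 1 point per gene at its brightest probe set, with colours for genes that passed adjusted p under 0.05 and names for those chosen by rule; the dotted line marks Hdac1 at 2.31. Most points lie near 0, Tbl1xr1 lies above the line at 2.39, and Hdac9 lies at -1.60. The lowest point, at -1.82, is a class IIa regulator that did not pass.

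The 5 genes whose profiles over the 8 arrays were nearest to that of Hdac1 were found by the root mean square difference of log2 values, each centred on its own mean. Among 16356 genes ranked, these were Flacc1 (0.132), Prom1 (0.149), Maob (0.154), Tbl1xr1 (0.154) and Cpb1 (0.155). Prom1 is a membrane glycoprotein, Maob a mitochondrial amine oxidase, Cpb1 a carboxypeptidase, and Flacc1 a little-studied coiled-coil protein. Prom1 gave 10.83, 10.56, 10.37 and 10.01 on wild-type arrays 1 to 4, against 12.74, 13.03, 12.90 and 13.03 on the knockout arrays. Its wild-type values fell into the same order as those of Hdac1, with array 1 highest and array 4 lowest. Cpb1 read 9.07, 8.74, 8.53 and 8.43 in wild type, again in that order, and 11.17, 11.01, 10.92 and 10.89 in knockout. Maob shared the order, while in Flacc1 and Tbl1xr1 wild-type array 3 was the lowest (7.21 and 10.05). The 5 genes were picked for likeness over these same values, so a shared order is no separate result.

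Among deacetylases the nearest to Hdac1 was Hdac11 at 0.982, and the farthest Hdac8 at 1.37. The other genes reported to match oocyte siRNAs lay at 0.163 for Rangap1 (rank 6), 0.23 for Ppp4r1 (rank 22), 0.821 for Elob, 0.834 for Kif4 and 1.01 for Pdzd11 (rank 1541). Rangap1, the GTPase activator of Ran, gave 9.07, 8.48, 8.33 and 8.17 on wild-type arrays 1 to 4, against 11.10, 11.19, 11.11 and 10.93 on the knockout arrays. Ppp4r1, a regulatory subunit of protein phosphatase 4, read 10.57, 9.57, 9.39 and 9.40 in wild type and then 11.83, 11.79, 12.07 and 11.98. In Hdac1, Rangap1, Ppp4r1 and Elob, wild-type array 1 was the highest of the wild-type arrays and no group overlapped the other. The groups of Kif4 were also apart, with wild-type array 3 the highest, while those of Pdzd11 overlapped in its brightest probe set. The 5 siRNA-matched genes besides Hdac1 were chosen from published work on such oocytes, so their direction is no independent evidence. Of the 5, 4 were called higher, where 8.18% of all genes were. Pdzd11 (0.37) missed the threshold in its brightest probe set (limma, adjusted p = 0.0642) and passed in 2 of its 3 probe sets.

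**Figure D5:**
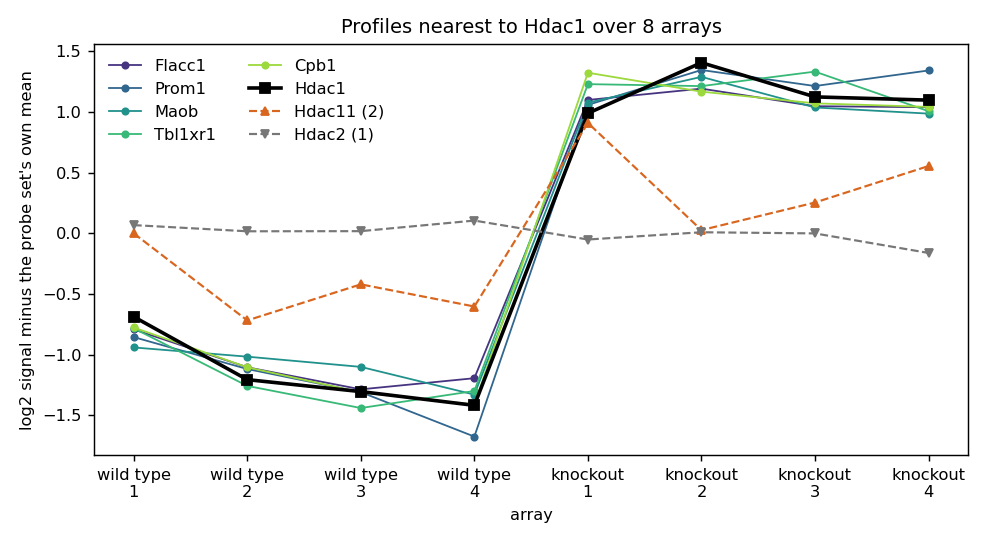
Log2 signal of Hdac1, the 5 genes nearest to it, and probe sets of Hdac11 and Hdac2, each minus its own mean, on the 4 wild-type and 4 knockout arrays; lines only join the values of 1 probe set. The 5 genes lie within a root mean square distance of 0.155 of Hdac1, Hdac11 (2) is flatter, and Hdac2 (1) stays close to 0.

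In the RefSeq gene table (assembly GRCm38.p6), Hdac1 lies on chromosome 4 and a copy named Hdac1-ps, annotated as a pseudogene, on chromosome 17. No probe set carries the name Hdac1-ps. Whether the Hdac1 probe set also binds transcripts of this copy was not tested. The measured protein-coding neighbours, 3 on each side, were listed after the Hdac1 values were known. Around Hdac1 none of the 6 passed in its brightest probe set, with the nearest, Marcksl1 and Fam167b, at 0.12 ± 0.14 and 0.22 ± 0.0976 (SE). Of 4 Marcksl1 probe sets 1 passed as higher. Around Hdac1-ps 1 of the 6 rose and 1 fell. Fez2, the nearest on one side, fell from 9.40 ± 0.127 to 8.26 ± 0.379 (SD, n = 4 and 4; limma, adjusted p = 0.00168). Heatr5b, 3 genes away on the other side, rose from 12.16 ± 0.293 to 13.24 ± 0.264 (limma, adjusted p = 0.00214) in 1 of its 4 probe sets. Vit, the nearest on that side, did not pass (-0.11, adjusted p = 0.506).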

How the data were processed

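Per the submitters' processing notes, the deposited log2 signals were made by the authors with RMA and Partek, whose versions and settings are not given in the sources used here. The table held 45101 probe sets on 8 arrays (4 per genotype, group from the genotype label), with 0 missing values and 0 columns of other samples. The 64 control probe sets were left out. Gene symbols came from the platform annotation, 34945 probe sets had 1 symbol, and all 10 deacetylase genes matched the RefSeq gene table. A listed gene was represented by its brightest probe set.

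For knockout minus wild type, a limma model (version 3.58.1, R 4.3.3; lmFit and eBayes, no covariates) ran over 45037 probe sets with Benjamini-Hochberg adjustment, and adjusted p under 0.05 passed. For Hdac1 minus every other probe set, the same moderated fit called 44853 of 45036. Its prior degrees of freedom were infinite, because all rows share the Hdac1 values, and its p-values are too small. The text therefore prints the errors and p-values of the unmoderated model in its place. The labels list separate mice, and 4 arrays per group limit the precision. The fit was tested on simulated data.

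Genes were named by rule: all deacetylase probe sets, the 2 members of lowest p per direction in each list, every siRNA-matched gene and the 5 nearest profiles. In the lists of cell markers this rule was not followed. The cell markers, Sin3a, Chd4, Sirt1 and Sirt5 were named outside it, with their values known. Neighbouring genes were added after the Hdac1 values were seen. The members, lists and tests were chosen with earlier results of these data known. Alternatives were dropping means under 5, scaling arrays by quantile, median or cyclic loess, a trended robust or a plain variance, weighting arrays, the title code as a random or fixed block, means of probe sets, suffixes, and leaving out each array. The siRNA sequences were not used here.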

Additional observations from a re-analysis of the deposited data

Results flagged for a closer look

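In 108 sets of 4 values, 1 array stood far off the remaining 3 in 3 cases, judged by its distance from the closest of them as a share of the full range, and chance alone gives about 5. The dim Hdac10 probe set (1441832_at) read 3.41 on wild-type array 3, while the remaining wild-type arrays spanned 3.15 to 3.18. Ppp4r1 read 10.57 on wild-type array 1, while the remaining ones spanned 9.39 to 9.57. Pdzd11 read 11.75 on wild-type array 3, while the remaining ones spanned 11.35 to 11.41.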

How the results depend on the processing

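The log2 rise of Hdac1 kept its direction and its call under all 9 other settings (2.20 to 2.41, adjusted p up to 0.00426) and without each array (2.22 to 2.47). All 16 differences between Hdac1 and the other deacetylase probe sets kept their call wherever they were tested, 13 of them under the filter on dim probe sets, which removes 3. The count of deacetylase probe sets called higher, 2, was 3 under quantile scaling and array weights, where the brighter Hdac11 probe set passed (adjusted p = 0.0455 and 0.0399), 1 in the plain linear model and with the title code as a fixed block, and 1 to 3 without single arrays. The count called lower, 1, was 0 under quantile scaling, cyclic loess scaling, trend and robust eBayes, the fixed block and the mean of probe sets, and 0 to 2 without single arrays. Over all probe sets, the fixed block gave 969 higher and 1222 lower in place of 3072 and 4192, and single arrays left 2306 to 2851 and 3150 to 3778. That block leaves few degrees of freedom. Small differences turned sign. With the fixed block they were 0.0142 for Hdac5, 0.0524 for Hdac10 (1441832_at), and 0.0451 and 0.0125 for Hdac4 (1447566_at and 1454693_at). Without single arrays, Hdac5 ranged from -0.0406 to 0.0317 (above 0 without wild-type array 3 or knockout array 4), Hdac10 from -0.0403 to 0.0437 (above 0 without wild-type array 3) and Marcksl1 from -0.0237 to 0.186 (below 0 without knockout array 4). The cause was not tested. Of 60 called probe sets examined, 40 kept the call without each array and 16 in every other setting. In the fit on the mean of each gene's probe sets, Hdac1, which has 1 probe set, differed by 2.31 (limma, adjusted p = 3.3e-05). The labels give the groups no replicate numbers, so the shared title code was the only pairing fitted. As a random block it left the counts at 2 higher and 1 lower. In the plain linear model and with the fixed block alike, 3 class I partners and 1 class IIa regulator were called higher. Dim probe sets, such as those of Hdac2 and Hdac10 near 3 to 5, limit what can be seen of small changes.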
